A study of Mus musculus with 8 samples.

Results

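The comparison of osmotic stress with untreated NIH3T3 cells rests on 4 libraries of nuclear RNA, 2 from cells kept for 2 h in medium with 200 mM KCl and 2 from untreated cells. NIH3T3 is an established line of mouse embryonic fibroblasts, and nuclei were enriched on a sucrose cushion before the RNA was depleted of ribosomal RNA and sequenced. Of the 48676 rows of the deposited gene tables, all 14880 that reached 0.5 RPKM in 2 or more of these 4 libraries were included, and 10124 of them match a single protein-coding gene by name. The series also holds 2 libraries from cells kept for 2 h at 44 °C (heat shock) and 2 from cells given 0.2 mM H2O2 for 2 h (oxidative stress), and these entered the estimate of the spread and 1 further comparison. Every group came from the same line in the same serum-containing medium, KCl was the only osmolyte, and a rise in potassium outside the cell also shifts the membrane potential.

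In a hyperosmotic medium water leaves the cell, the cell shrinks, and ions and macromolecules in it become more concentrated. Cells answer within minutes through stress-activated MAP kinases such as p38 and JNK and through ion transporters that restore volume, and over hours through the transcription factor NFAT5, which drives genes for the uptake and synthesis of compatible osmolytes such as sorbitol, betaine, taurine and myo-inositol. Immediate early genes, the integrated stress response and a failure of RNA polymerase II to stop at gene ends are further known parts of the response, and in nuclear RNA recent transcription weighs more than in whole-cell RNA.

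The 2 osmotic stress libraries were less alike than the 2 untreated ones. The log2 values of the replicates correlated across rows with r = 0.924 for osmotic stress and r = 0.971 for untreated cells (genes are not independent replicates), and the SD of the difference between replicates was 0.833 for osmotic stress and 0.49 for untreated cells. Over protein-coding rows these SDs were 0.416 and 0.365. Osmotic stress replicate 1 stood apart: a single row named AC113316.1 held 52.8% of its RPKM sum of 1943300, and Malat1, an abundant nuclear RNA, was listed at 0 there beside 2045 RPKM in replicate 2 and 1844 and 2228 RPKM in untreated cells. Absolute depth cannot be read from RPKM. The most frequent ratio between low values, which tracks what 1 read is worth, put the depth at 1.35 and 0.951 for osmotic stress and 1.35 and 1 for untreated cells, relative to untreated replicate 2. The cells carried fibroblast markers: 12 of 12 were measured, and they summed to 7372 and 8333 RPKM under osmotic stress and 8843 and 8375 RPKM in untreated cells. Most of each sum was S100a4, with 5096 and 6453 RPKM under osmotic stress and 5643 and 6096 RPKM in untreated cells. Low levels were found for Pdgfrb (0.522 and 0.982 RPKM under osmotic stress, 0.951 and 1.11 RPKM in untreated cells) and Thy1 (1.68 and 1.43 RPKM under osmotic stress, 2.05 and 0.732 RPKM in untreated cells). Of 22 rows for markers of epithelial, blood, endothelial, muscle, neural and liver cells, 19 stayed below 0.5 RPKM in all 4 libraries, and Epcam, Krt5, Hbb-b1, Myod1 and Myog were listed at 0 in each. The exceptions were Cd68 with 19.3 and 18.6 RPKM under osmotic stress and 28.6 and 16.9 RPKM in untreated cells, Des with 4.47 and 4.64 RPKM under osmotic stress and 4.43 and 3.69 RPKM in untreated cells, and Cdh5, which reached 0.6 RPKM in 1 untreated library.

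After 2 h of osmotic stress a small set of transcripts was called as different from untreated cells, with a spread taken over all 8 libraries. On the deposited scale more of them were higher than lower, while each of the 4 other scalings below called more rows lower than higher. At an adjusted p under 0.05 (limma), 135 of the 14880 rows differed from untreated cells (0.907%), of which 85 were higher (0.571%) and 50 were lower (0.336%), and 3490 rows passed an unadjusted p under 0.05. The list counts at an unadjusted p given below stand beside these 3490 of 14880 rows. Several lists lie near that share. Of the 85 higher rows, 67 rose by at least 1 on the log2 scale of RPKM + 0.5, and 48 of the 50 lower rows fell by at least as much. In all 85 and all 50 rows the osmotic stress values did not overlap the untreated ones. Groups that lie apart are thus no further support for a called row, and they are none for a row not called. With 2 libraries a side an exact permutation test of 1 gene cannot go below p = 0.333. The share of all tested rows whose groups lie apart is not given here. Rows that match a single protein-coding gene by name made up 47 of the higher rows and 8 of the lower ones. Another 33 of the lower rows have a name with no single match in the GENCODE annotation. Coding genes listed under an older symbol, or under a name that matches more than 1 gene, are not among the 47 and 8. The median change of all tested rows was 0.19, with 0.17 in replicate 1 and 0.21 in replicate 2, so the values were shifted upward as a whole. In bulk RNA, fewer cells and less RNA per cell cannot be told apart, and neither can a shift of all transcripts and the scaling of the libraries.

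With the median-of-ratios scaling that removes this shift, 62 rows were called higher and 107 lower. With quantile normalization the counts were 68 and 97. Bringing the columns to a common sum gave 42 and 44 when the AC113316.1 row was left out and 113 and 175 when it was kept. All 135 called rows kept their direction under these scalings, and 77 stayed called under each of them except the common sum with the AC113316.1 row. Of the 38 called rows described singly by rule, the common sum with that row ended 13 calls, and the other scalings ended between 3 and 6, given beside each gene. The calls changed when 1 library was left out: 5 rows, none of them higher, were called without untreated replicate 1, 4 rows, none higher, without untreated replicate 2, 33 without osmotic stress replicate 1 and 915 without osmotic stress replicate 2. A fit of the 4 libraries alone called 4 rows higher and 9 lower, and only 8 of the 135 rows were among them. Only 2 of the 38 rows described singly, Gm14162 and AK006031, stayed called in that fit. Of the 38 rows described singly, 0 stayed called without either untreated library (limma) and 9 without osmotic stress replicate 1, while all 38 kept their direction in each of these fits. The labels do not say whether replicates came from separate cultures, so the p-values measure the spread between these libraries, which may be technical.

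**Figure D1:**
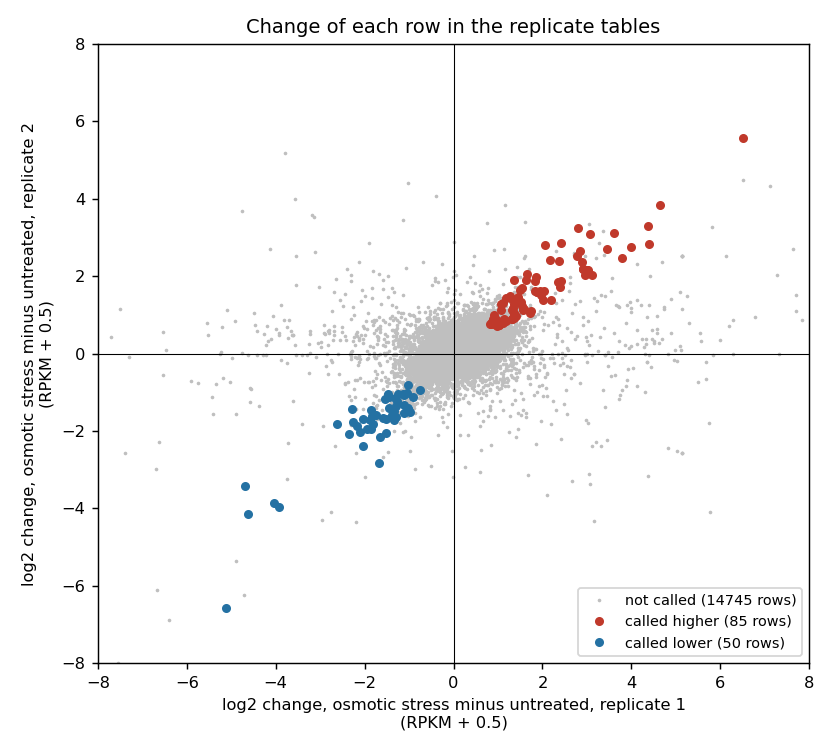
Each point is a row, with its log2 change (osmotic stress minus untreated, RPKM + 0.5) in the replicate 1 table on the horizontal axis and in the replicate 2 table on the vertical axis, and 35 rows past 8 in either direction are not drawn. The called rows that are drawn, of 85 higher and 50 lower, lie along the diagonal, while rows scattered along either axis changed in 1 table.

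The largest rise of any called protein-coding gene was that of Egr1, and other early response transcription factors were called with it. Egr1, a zinc finger factor switched on by MAP kinase signalling, had 19.9 and 9.06 RPKM under osmotic stress, against 0.488 and 0.474 RPKM in untreated cells (log2 change 3.83 ± 0.44 (SE), adjusted p = 0.019). Fos, a partner in the AP-1 dimer, had 5.97 and 3.24 RPKM under osmotic stress, against 0.331 and 0.41 RPKM in untreated cells (log2 change 2.50 ± 0.35 (SE), adjusted p = 0.0348). Both genes were close to the 0.5 RPKM filter in untreated cells and above it in both osmotic stress libraries, and both were higher in osmotic stress replicate 1 than in replicate 2. Jund, the AP-1 member that most cells make steadily, started far higher, with 134 and 111 RPKM under osmotic stress, against 47.0 and 34.9 RPKM in untreated cells (log2 change 1.57 ± 0.22 (SE), adjusted p = 0.0335). Fosb, a close relative of Fos, had 2.91 and 1.62 RPKM under osmotic stress, against 0.0517 and 0.0973 RPKM in untreated cells and did not pass (log2 change 2.23, adjusted p = 0.058). Jun had 22.4 and 19.97 RPKM under osmotic stress and 12.7 and 9.32 RPKM in untreated cells (log2 change 0.93, adjusted p = 0.12). Fosb and Jun were chosen after their values were seen. Of 12 tested genes of the AP-1 family and Atf3, 2 were called higher and 0 lower, and their median change was 0.35.

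Among 24 other immediate early genes, 3 were called higher and 0 lower, with a median change of 0.53 beside 0.19 for all rows. They were Egr1, Rhob and Zfp36l1. Rhob, a small GTPase of actin and endosome traffic, had 29.5 and 23.0 RPKM under osmotic stress, against 9.81 and 9.54 RPKM in untreated cells (log2 change 1.38 ± 0.20 (SE), adjusted p = 0.0354). Zfp36l1, which binds AU-rich elements and promotes the decay of the mRNAs that hold them, had 6.70 and 5.20 RPKM under osmotic stress, against 2.31 and 2.35 RPKM in untreated cells (log2 change 1.18 ± 0.17 (SE), adjusted p = 0.0358; 0.0749 with a common sum without the AC113316.1 row). The untreated values of both genes lay close together and well below both osmotic stress values. In all, 21 of the 24 genes changed by more than the median of all rows, and the lowest value was -0.22 for Ctgf, a matricellular growth factor gene. Egr3 fell just outside the filter on low values, with 0.805 and 0.499961 RPKM under osmotic stress and 0.222 and 0.222 RPKM in untreated cells, and Fbxw10 was just inside it, with 0.603 and 0.500103 RPKM under osmotic stress and 0.0851 and 0.0624 RPKM in untreated cells.

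The strongest rise among targets of the integrated stress response, in which phosphorylation of the initiation factor eIF2α favours translation of ATF4, was that of Ddit3, which encodes the transcription factor CHOP. Ddit3 had 126 and 86.0 RPKM under osmotic stress, against 15.1 and 18.8 RPKM in untreated cells (log2 change 2.59 ± 0.35 (SE), adjusted p = 0.0334), and the groups did not overlap. The gene overlaps Mars, a tRNA synthetase gene on the other strand, in the reference annotation, and the Mars row had 51.7 and 58.0 RPKM under osmotic stress, against 54.9 and 57.3 RPKM in untreated cells. No other target passed the adjusted threshold: of 22 tested, 1 was called higher and 0 lower, with 7 higher and 0 lower at an unadjusted p under 0.05. Ddit4, an inhibitor of mTORC1, had 16.9 and 18.2 RPKM under osmotic stress, against 4.80 and 8.71 RPKM in untreated cells (log2 change 1.37, adjusted p = 0.0674), and Atf4 itself had 236 and 243 RPKM under osmotic stress, against 174 and 146 RPKM in untreated cells (log2 change 0.58, adjusted p = 0.119). Ppp1r15a, the eIF2α phosphatase subunit also called GADD34, had 15.2 and 12.9 RPKM under osmotic stress, against 6.57 and 7.29 RPKM in untreated cells (log2 change 0.97, adjusted p = 0.0882). Asns, an amino acid synthesis gene downstream of ATF4, had 88.6 and 116 RPKM under osmotic stress, against 110.1 and 123 RPKM in untreated cells (log2 change -0.19, adjusted p = 0.682). The list median was 0.29. Ddit4, Atf4, Ppp1r15a and Asns are given after their values were seen.

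The promoters of Ddit3 and Fos show the letters that known stress-responsive factors read, and the sequences from RefSeq (build GRCm38.p6, 250 bases before to 50 bases after the start) are shown for that reason. In Ddit3 the capitals mark TGANTCA, the core that AP-1 binds, and in Fos they mark TGACG, the core of the cyclic AMP response element.
Ddit3, chr10:127290543-127290842, plus strand: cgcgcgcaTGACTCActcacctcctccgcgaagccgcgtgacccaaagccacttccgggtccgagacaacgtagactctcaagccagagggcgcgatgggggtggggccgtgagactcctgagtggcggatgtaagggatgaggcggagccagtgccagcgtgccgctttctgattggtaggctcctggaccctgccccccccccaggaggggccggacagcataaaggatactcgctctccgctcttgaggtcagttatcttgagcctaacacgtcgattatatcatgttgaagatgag
Fos, chr12:85473640-85473939, plus strand: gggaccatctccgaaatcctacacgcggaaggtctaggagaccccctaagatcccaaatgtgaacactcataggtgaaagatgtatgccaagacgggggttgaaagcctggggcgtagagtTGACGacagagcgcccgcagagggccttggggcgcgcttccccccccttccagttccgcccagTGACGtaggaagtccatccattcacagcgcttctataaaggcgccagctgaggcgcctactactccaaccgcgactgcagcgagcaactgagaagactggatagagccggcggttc
Promoter windows were at hand for 34 of the 47 protein-coding genes called higher (38 windows). On either strand, TGACG stood in 18 of these windows (47.4%), in 31.9% of 10210 windows of tested protein-coding genes and in 20.8% of all 32851 windows. TGANTCA stood in 1 of the 38 windows (2.63%), against 5.18% of the windows of tested genes and 7.81% of all windows, and TGGAAA, the core that NFAT5 and other NFAT factors share, stood in 6 (15.8%), against 16.6% and 21.4%. TGACG can overlap its own reverse complement in a full element. Ddit3 is not among these 34 genes, because its name matches more than 1 annotated gene. A match says only that the letters are present in the window.

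Hexim1 rose among the genes that control elongation by RNA polymerase II. The protein, with the 7SK RNA, holds the elongation kinase P-TEFb inactive. Hexim1 had 79.6 and 42.6 RPKM under osmotic stress, against 14.8 and 12.6 RPKM in untreated cells (log2 change 2.06 ± 0.28 (SE), adjusted p = 0.0334), and both osmotic stress values lay far above the untreated ones. Its relative Hexim2 had 9.41 and 10.2 RPKM under osmotic stress, against 5.54 and 5.49 RPKM in untreated cells (log2 change 0.77, adjusted p = 0.0903). Among 23 tested genes of this list 1 was called higher and 0 lower, with 7 higher and 1 lower at an unadjusted p under 0.05 and a median change of 0.05. Nelfe, which encodes a subunit of the complex that pauses the polymerase, had 12.2 and 2.56 RPKM under osmotic stress, against 0.719 and 0.0215 RPKM in untreated cells and did not pass (log2 change 2.97, adjusted p = 0.098). Cobra1, the older symbol of Nelfb, of the same complex, was called: it had 37.9 and 34.9 RPKM under osmotic stress, against 20.1 and 17.1 RPKM in untreated cells (log2 change 0.95, adjusted p = 0.0434), while the row named Nelfb was near 0 in all 4 libraries. Of 15 tested rows named 7SK, 1 was called, with 11.8 and 5.08 RPKM under osmotic stress, against 1.02 and 0.754 RPKM in untreated cells (log2 change 2.58, adjusted p = 0.0493), while the row with the highest level had 26480 and 19580 RPKM under osmotic stress, against 18850 and 17110 RPKM in untreated cells (adjusted p = 0.84). Copies of 7SK are near-identical, so these rows are uncertain. Hexim2, Nelfe, Cobra1 and the called 7SK row were chosen after their values were seen.

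Ppp1r10, by contrast, fell. It encodes PNUTS, the nuclear subunit of protein phosphatase 1 that acts on the polymerase at gene ends, and had 21.1 and 20.6 RPKM under osmotic stress, against 51.1 and 43.3 RPKM in untreated cells (log2 change -1.15 ± 0.14 (SE), adjusted p = 0.0215). It was the only one of 35 tested cleavage, polyadenylation and termination factors past the threshold, and 6 higher and 2 lower at an unadjusted p under 0.05 were found in that list. Its median change was 0.11. Cpsf1, which encodes the largest subunit of the cleavage and polyadenylation specificity factor, had 28.8 and 21.5 RPKM under osmotic stress, against 21.2 and 15.5 RPKM in untreated cells (log2 change 0.45, adjusted p = 0.24).

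RNA-binding genes moved in both directions. Hnrnpd, which encodes AUF1, a binder of AU-rich elements, had 64.5 and 48.0 RPKM under osmotic stress, against 18.8 and 22.2 RPKM in untreated cells (log2 change 1.42 ± 0.20 (SE), adjusted p = 0.0354; 0.052 with quantile normalization and 0.0571 with a common sum without the AC113316.1 row), the only call among 24 hnRNP genes (median 0.09). Srsf5, an SR splicing factor, had 33.0 and 31.6 RPKM under osmotic stress, against 71.8 and 79.5 RPKM in untreated cells (log2 change -1.21 ± 0.14 (SE), adjusted p = 0.0215), the only call among 21 SR, Tra2 and CLK genes, and both osmotic stress values were below both untreated ones. Srsf1 had 176 and 144 RPKM under osmotic stress, against 188 and 183 RPKM in untreated cells (log2 change -0.22, adjusted p = 0.488). The row named D4Wsu53e, an older symbol of Rsrp1, an arginine and serine rich gene, fell further, with 14.2 and 19.2 RPKM under osmotic stress, against 74.8 and 82.6 RPKM in untreated cells (log2 change -2.22 ± 0.20 (SE), adjusted p = 0.0118). The row Hnrpk, an older symbol of Hnrnpk, had 1.44 and 1.37 RPKM under osmotic stress, against 8.86 and 5.87 RPKM in untreated cells (log2 change -2.02 ± 0.23 (SE), adjusted p = 0.0187), while the far more abundant row named Hnrnpk had 88.8 and 91.2 RPKM under osmotic stress, against 108 and 95.7 RPKM in untreated cells (log2 change -0.18, adjusted p = 0.469). The row named Rsrp1 had 13.9 and 8.28 RPKM under osmotic stress, against 15.6 and 3.02 RPKM in untreated cells (log2 change 0.58, adjusted p = 0.678). How reads were divided between rows under an older and a current symbol was not tested, so the falls of D4Wsu53e and Hnrpk are those of these rows and not of the whole genes.

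Further protein-coding genes rose without belonging to a list. Caprin2, an RNA-binding gene with a role in Wnt signalling, had 14.5 and 9.57 RPKM under osmotic stress, against 1.48 and 1.71 RPKM in untreated cells (log2 change 2.56 ± 0.22 (SE), adjusted p = 0.0118). Slc20a1, a sodium-dependent phosphate transporter, had 84.97 and 64.7 RPKM under osmotic stress, against 21.5 and 20.6 RPKM in untreated cells (log2 change 1.79 ± 0.19 (SE), adjusted p = 0.0149). Cdkn2aip, which encodes a partner of the tumour suppressor ARF, had 23.3 and 19.0 RPKM under osmotic stress, against 5.54 and 6.34 RPKM in untreated cells (log2 change 1.75 ± 0.16 (SE), adjusted p = 0.0118). In these genes every osmotic stress value lay well above every untreated value. Ska2, of the spindle and kinetochore complex, had 17.3 and 10.8 RPKM under osmotic stress, against 4.33 and 3.23 RPKM in untreated cells (log2 change 1.74 ± 0.27 (SE), adjusted p = 0.0453). Vmac, a coiled-coil gene, had 26.2 and 16.8 RPKM under osmotic stress, against 3.22 and 2.27 RPKM in untreated cells (log2 change 2.74 ± 0.25 (SE), adjusted p = 0.0118), and it overlaps Ndufa11 on the other strand, whose row had 10.99 and 9.51 RPKM under osmotic stress, against 9.58 and 7.21 RPKM in untreated cells. Gm10643 had 7.12 and 4.65 RPKM under osmotic stress, against 0.922 and 0.902 RPKM in untreated cells. AI837181 had 47.4 and 29.98 RPKM under osmotic stress, against 8.76 and 5.32 RPKM in untreated cells. The log2 changes of Gm10643 and AI837181 were 2.15 and 2.38, with adjusted p of 0.0145 and 0.0499, but AI837181 did not pass with quantile normalization (adjusted p = 0.0563) or median-of-ratios scaling (adjusted p = 0.0527). For both the groups did not overlap, and the higher osmotic stress value was that of replicate 1. Ccl11, the eosinophil chemokine eotaxin, was nearly absent from untreated cells, with 1.68 and 3.58 RPKM under osmotic stress, against 0.0259 and 0.0859 RPKM in untreated cells (log2 change 2.43 ± 0.34 (SE), adjusted p = 0.0354; 0.0521 with median-of-ratios scaling and 0.0707 with a common sum without the AC113316.1 row). Eno1b, a copy of the enolase gene Eno1, had 4.06 and 3.12 RPKM under osmotic stress, against 0.358 and 2.89e-05 RPKM in untreated cells (log2 change 2.63, adjusted p = 0.0176), and reads shared with Eno1 make its level uncertain. Rap1b, a small GTPase of integrin signalling, had 48.6 and 38.6 RPKM under osmotic stress, against 21.9 and 20.6 RPKM in untreated cells (log2 change 1.01, adjusted p = 0.0461). Its paralogue Rap1a had 10.8 and 8.92 RPKM under osmotic stress, against 3.93 and 4.44 RPKM in untreated cells (log2 change 1.14, adjusted p = 0.0354). Rab5a, of early endosomes, had 32.1 and 25.6 RPKM under osmotic stress, against 12.7 and 13.6 RPKM in untreated cells (log2 change 1.10, adjusted p = 0.0334). These 3 genes were chosen after their values were seen, and in each the groups were well apart. Of the 47 protein-coding genes called higher, 43 had a higher value in osmotic stress replicate 1 than in replicate 2, as did 69.6% of all tested protein-coding rows.

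On the other side, 8 rows that match a single protein-coding gene by name fell past the threshold, among them Gm7324, Vcl, Iqgap1, Rrbp1, Srsf5, Ppp1r10 and Pdcd11. Vcl, which encodes vinculin, the link between integrin adhesions and actin, had 36.1 and 32.5 RPKM under osmotic stress, against 99.1 and 87.2 RPKM in untreated cells (log2 change -1.43 ± 0.18 (SE), adjusted p = 0.0272). Iqgap1, a scaffold of actin and small GTPase signalling, had 64.2 and 68.3 RPKM under osmotic stress, against 180.0 and 142 RPKM in untreated cells (log2 change -1.26 ± 0.19 (SE), adjusted p = 0.0382; 0.0678 with a common sum without the AC113316.1 row). They were the 2 calls among 27 focal adhesion, actin and SRF target genes, whose median change was -0.17, and 20 of the 27 lay below the median of all rows. Rrbp1, a ribosome receptor of the rough endoplasmic reticulum, had 47.1 and 52.8 RPKM under osmotic stress, against 114 and 123 RPKM in untreated cells (log2 change -1.24 ± 0.19 (SE), adjusted p = 0.0462; 0.0566 with quantile normalization and 0.0828 with a common sum without the AC113316.1 row). Both osmotic stress values of Rrbp1 were far below both untreated values. Pdcd11, a ribosomal RNA processing factor, had 30.4 and 26.4 RPKM under osmotic stress, against 51.7 and 51.4 RPKM in untreated cells (log2 change -0.85 ± 0.13 (SE), adjusted p = 0.0461). Gm7324 had 1.61 and 1.27 RPKM under osmotic stress, against 4.70 and 5.04 RPKM in untreated cells (log2 change -1.47, adjusted p = 0.0358). In none of the 8 genes did the groups overlap, as in all 50 rows called lower. Apart from Gm7324 all were abundant genes of over 20 RPKM in each of the 4 libraries. Vcl overlaps Ap3m1 and Pdcd11 overlaps Calhm2, each on the other strand. Whether the authors' counting used strand is not given in the sources used here.

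**Figure D2:**
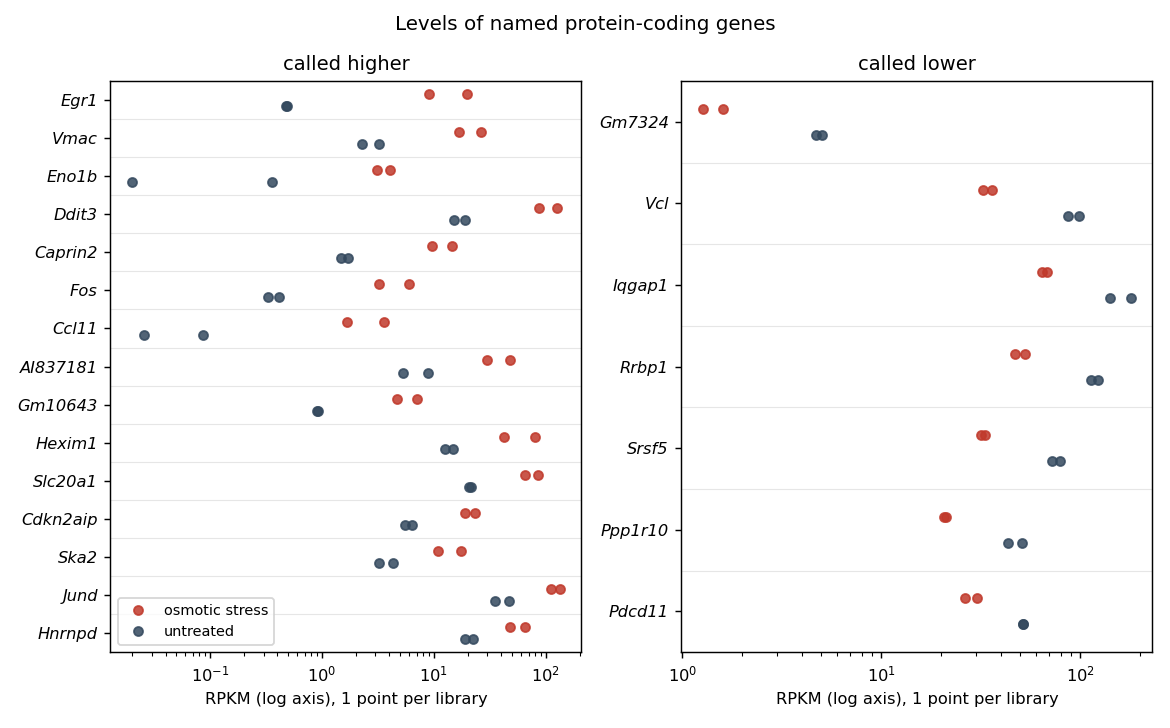
Each point is 1 library, with the RPKM of named protein-coding genes on a log axis, osmotic stress in red above untreated in dark blue for each gene, and values under 0.02 drawn at 0.02. For each of these genes both osmotic stress libraries lie on the same side of both untreated libraries, from Egr1 (19.9 and 9.06 RPKM under osmotic stress, 0.488 and 0.474 RPKM in untreated cells) to Pdcd11 (30.4 and 26.4 RPKM under osmotic stress, 51.7 and 51.4 RPKM in untreated cells). All called rows share this separation.

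Among non-coding genes Mir17hg fell, the host transcript of the miR-17-92 microRNA cluster, whose microRNAs promote proliferation and are often amplified in lymphoma. Mir17hg had 0.684 and 0.697 RPKM under osmotic stress, against 4.602 and 4.33 RPKM in untreated cells (log2 change -2.06 ± 0.16 (SE), adjusted p = 0.00961), and the replicates of each group differed little. The mature microRNAs cut from it are shown because they are the products of this host. Sequences and positions are from RefSeq (GRCm38.p6), the capitals mark the seed (bases 2 to 8), and members that share a seed stand together.
miR-17-5p, chr14:115043684-115043706, plus strand: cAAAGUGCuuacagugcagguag
miR-20a-5p, chr14:115044183-115044205, plus strand: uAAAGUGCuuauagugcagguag
miR-18a-5p, chr14:115043867-115043889, plus strand: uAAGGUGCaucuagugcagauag
miR-19a-3p, chr14:115044048-115044070, plus strand: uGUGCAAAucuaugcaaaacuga
miR-19b-3p, chr14:115044358-115044380, plus strand: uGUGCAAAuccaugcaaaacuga
miR-92a-3p, chr14:115044476-115044496, plus strand: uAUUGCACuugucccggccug
The first pair shares the seed AAAGUGC and the miR-19 pair shares GUGCAAA, while miR-18a and miR-92a each have their own. The libraries were not made for small RNAs, so the fall concerns the host transcript and not the mature microRNAs. Dleu2, the host of the miR-15a and miR-16-1 cluster, was also called lower, with 2.57 and 2.00 RPKM under osmotic stress, against 8.36 and 7.57 RPKM in untreated cells (log2 change -1.61, adjusted p = 0.0176; chosen after its value was seen). Mir17hg was the only call among 13 tested nuclear non-coding RNAs and snoRNA hosts, whose median change was -0.20. Malat1 in that list had 0 and 2045 RPKM under osmotic stress and 1844 and 2228 RPKM in untreated cells, and a 0 in such a table can be a failed estimate.

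Other rows outside protein-coding genes included some of the largest changes. Gm14162, an annotated processed pseudogene, had 12.9 and 8.14 RPKM under osmotic stress, against 0.0383 and 0.102 RPKM in untreated cells (log2 change 4.24 ± 0.26 (SE), adjusted p = 0.00305). AK006031 had 4.59 and 4.07 RPKM under osmotic stress, against 0.107 and 0.0356 RPKM in untreated cells. S60130 had 4.49 and 2.85 RPKM under osmotic stress, against 0.232 and 0.0848 RPKM in untreated cells. The lincRNA 9330104G04Rik had 4.35 and 3.56 RPKM under osmotic stress, against 0.155 and 0.282 RPKM in untreated cells. Their log2 changes were 3.08, 2.64 and 2.63, with adjusted p of 0.0126, 0.0186 and 0.013. All 4 were near 0 in both untreated libraries and at several RPKM in both osmotic stress libraries. A row of the spliceosomal RNA U6 had 120.0 and 52.7 RPKM under osmotic stress, against 7.08 and 7.33 RPKM in untreated cells (log2 change 3.38, adjusted p = 0.0282), but 4 U6 rows were called in all, 2 of them lower and listed at 0 in both osmotic stress libraries, and copies of U6 are too alike to be told apart. Snhg20 had 6.45 and 2.30 RPKM under osmotic stress and 0.000989 and 0.00133 RPKM in untreated cells (log2 change 3.14, adjusted p = 0.0267). On the lower side, AK141672 had 1.03 and 2.22 RPKM under osmotic stress, against 24.7 and 39.2 RPKM in untreated cells (log2 change -3.96, adjusted p = 0.0187). Gm6635, a pseudogene of the ribosomal protein gene Rpl31, had 2.70 and 3.27 RPKM under osmotic stress, against 19.1 and 12.7 RPKM in untreated cells (log2 change -2.21, adjusted p = 0.0142). LOC106557447 had 6.84 and 5.45 RPKM under osmotic stress, against 32.6 and 21.4 RPKM in untreated cells (log2 change -2.02, adjusted p = 0.0283). In all 3 of these rows the groups were far apart.

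The genes that define the hyperosmotic response did not pass the threshold. Of 15 osmolyte and hyperosmotic response genes 13 were tested, 0 were called by limma in either direction, 1 passed an unadjusted p under 0.05, and the median change was 0.10. Nfat5 had 20.02 and 15.6 RPKM under osmotic stress, against 13.96 and 19.4 RPKM in untreated cells (log2 change 0.10, adjusted p = 0.806). Its target Akr1b3, the aldose reductase that makes sorbitol, had 14.7 and 29.99 RPKM under osmotic stress, against 12.0 and 20.9 RPKM in untreated cells (log2 change 0.40, adjusted p = 0.719). Slc5a3, the myo-inositol transporter, had 31.2 and 38.5 RPKM under osmotic stress, against 22.2 and 37.1 RPKM in untreated cells (log2 change 0.27, adjusted p = 0.67). For both targets the replicates differed more than the groups. Within each replicate number both were higher under osmotic stress, and the median change of all rows also lay above 0. The labels do not say whether the numbers mark a pairing. The widest changes in the list were those of the taurine transporter Slc6a6, with 28.6 and 30.1 RPKM under osmotic stress, against 51.5 and 46.1 RPKM in untreated cells (log2 change -0.72, adjusted p = 0.121), and of the kinase gene Sgk1, with 23.6 and 21.2 RPKM under osmotic stress, against 20.01 and 13.6 RPKM in untreated cells (log2 change 0.43, adjusted p = 0.242). Akr1b3 and Slc5a3 were chosen after their values were seen.

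Cab39 was the 1 call among 22 genes of ion transport and cell volume control. It encodes MO25, which activates the kinases that regulate cation-chloride cotransporters, and had 43.3 and 39.4 RPKM under osmotic stress, against 17.2 and 20.97 RPKM in untreated cells (log2 change 1.10 ± 0.14 (SE), adjusted p = 0.0283). Lrrc8a, the core subunit of the volume-regulated anion channel, had 8.53 and 6.50 RPKM under osmotic stress, against 7.47 and 4.55 RPKM in untreated cells (log2 change 0.33, adjusted p = 0.46), and the list median was -0.01. The call for Cab39 was lost with median-of-ratios scaling (adjusted p = 0.0539) and with each of the other 3 scalings (adjusted p between 0.064 and 0.886).

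Kinases and phosphatases of the stress-activated pathways lay above all rows as lists, though no member passed in the fit without a replicate block. Of 22 stress kinase and GADD45 genes 0 were called by limma, with 6 higher and 0 lower at an unadjusted p under 0.05 and a median change of 0.44, and 18 lay above the median of all rows. The 6 of 22 lie near the share of all rows at that p, 3490 of 14880 in either direction. Map2k4, a kinase of JNK and p38, had 21.1 and 19.9 RPKM under osmotic stress, against 12.6 and 12.5 RPKM in untreated cells (log2 change 0.68, adjusted p = 0.062). Gadd45g, an activator of the p38 pathway, had 40.7 and 19.3 RPKM under osmotic stress, against 15.4 and 9.67 RPKM in untreated cells (log2 change 1.17, adjusted p = 0.26), with replicates that differed by about as much as the groups. Mapk14, the p38α gene, had 31.7 and 29.1 RPKM under osmotic stress, against 30.2 and 22.4 RPKM in untreated cells (log2 change 0.22, adjusted p = 0.457). Of 14 phosphatase and feedback genes of the MAP kinases 0 were called, with 7 higher and 0 lower at an unadjusted p under 0.05 and a median change of 0.56. Dusp1, the early phosphatase of p38 and JNK, had 7.04 and 7.38 RPKM under osmotic stress, against 2.83 and 2.86 RPKM in untreated cells (log2 change 1.20, adjusted p = 0.0544). Errfi1, an inhibitor of the EGF receptor, had 22.8 and 15.9 RPKM under osmotic stress, against 10.9 and 9.56 RPKM in untreated cells (log2 change 0.87, adjusted p = 0.12). Relative to the median of all rows, these list medians were 0.24 and 0.37 higher, and between 0.17 and 0.23 and between 0.35 and 0.36 higher over the 4 scalings.

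Target genes of other stress pathways gave no calls in the fit without a replicate block. Their counts at an unadjusted p stand beside 3490 of 14880 for all rows, in either direction. The heat shock chaperone list (0 of 24 called, 3 higher and 0 lower at an unadjusted p under 0.05) had a median change of 0.21, beside 0.19 for all rows. Besides cytosolic chaperones it holds the mitochondrial Hspd1 and Hspe1 and the transcription factors Hsf1 and Hsf2. Hspa1a, the inducible HSP70, had 2.23 and 2.99 RPKM under osmotic stress, against 1.92 and 2.32 RPKM in untreated cells (log2 change 0.24, adjusted p = 0.483). Cacybp had 118 and 92.0 RPKM under osmotic stress, against 60.8 and 59.2 RPKM in untreated cells (log2 change 0.79, adjusted p = 0.0814). Hspe1, the mitochondrial HSP10, had 169 and 131 RPKM under osmotic stress, against 96.3 and 90.2 RPKM in untreated cells (log2 change 0.67, adjusted p = 0.109). The groups overlapped for Hspa1a and were apart for Cacybp and Hspe1. For p53 targets (0 of 21, 5 higher and 0 lower at an unadjusted p under 0.05) the median was 0.33, and Cdkn1a, the p21 cell cycle inhibitor, had 18.6 and 11.9 RPKM under osmotic stress, against 13.5 and 7.87 RPKM in untreated cells (log2 change 0.51, adjusted p = 0.351). Btg2 had 8.45 and 6.39 RPKM under osmotic stress, against 3.99 and 2.55 RPKM in untreated cells. Ccng1 had 154 and 110.2 RPKM under osmotic stress, against 82.8 and 76.9 RPKM in untreated cells. The groups overlapped for Cdkn1a and were apart for Btg2 and Ccng1. For NRF2 targets (0 of 19, 6 higher and 1 lower at an unadjusted p under 0.05) the median was 0.14. Among them Fth1, the ferritin heavy chain, had 402 and 366 RPKM under osmotic stress, against 197 and 185 RPKM in untreated cells (log2 change 1.01, adjusted p = 0.0702). Gclc, of glutathione synthesis, had 29.1 and 21.3 RPKM under osmotic stress, against 15.7 and 11.4 RPKM in untreated cells. Hmox1, heme oxygenase, had 6.13 and 9.80 RPKM under osmotic stress, against 8.73 and 8.60 RPKM in untreated cells. The groups overlapped for Hmox1 and were apart for Fth1 and Gclc. For NF-kB and inflammatory targets (0 of 17, 0 higher and 0 lower at an unadjusted p under 0.05) the median was 0.30, with 40.5 and 26.9 RPKM under osmotic stress, against 21.4 and 14.7 RPKM in untreated cells for Nfkbia, the inhibitor of NF-kB, and 2.10 and 1.49 RPKM under osmotic stress, against 0.889 and 0.459 RPKM in untreated cells for the chemokine Cxcl10.

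Genes of secretion and matrix lay below the other rows, again without a call in that fit. For 24 extracellular matrix genes (0 called by limma, 0 higher and 1 lower at an unadjusted p under 0.05) the median change was -0.38, and 23 of them changed by less than the median of all rows. Fn1, fibronectin, had 217 and 132 RPKM under osmotic stress, against 405 and 276 RPKM in untreated cells (log2 change -0.98, adjusted p = 0.135). Col6a1 had 13.2 and 24.7 RPKM under osmotic stress, against 22.7 and 32.4 RPKM in untreated cells (log2 change -0.57, adjusted p = 0.395), with a wide replicate spread in both. For 18 endoplasmic reticulum chaperones (0 called, 1 higher and 7 lower at an unadjusted p under 0.05) the median was -0.25. Canx, calnexin, had 194 and 212 RPKM under osmotic stress, against 372 and 397 RPKM in untreated cells (log2 change -0.92, adjusted p = 0.0641), with no overlap between the groups, and it passed with median-of-ratios scaling (adjusted p = 0.0481). Hspa5, the chaperone BiP, had 405 and 584 RPKM under osmotic stress, against 535 and 772 RPKM in untreated cells (log2 change -0.40, adjusted p = 0.461). Dnajb9, a BiP cochaperone, had 4.99 and 4.49 RPKM under osmotic stress, against 2.12 and 3.04 RPKM in untreated cells (log2 change 0.78, adjusted p = 0.109). For 20 cholesterol genes (0 called, 0 higher and 4 lower at an unadjusted p under 0.05) the median was -0.19. Cyp51 had 55.9 and 75.7 RPKM under osmotic stress, against 100.4 and 92.2 RPKM in untreated cells. Sc4mol, an older symbol of Msmo1, had 5.45 and 7.65 RPKM under osmotic stress, against 11.2 and 15.7 RPKM in untreated cells. In both rows each osmotic stress value was below both untreated values, but the row named Msmo1 had 79.7 and 95.7 RPKM under osmotic stress, against 96.2 and 86.3 RPKM in untreated cells (log2 change -0.06, adjusted p = 0.883). Relative to all rows the medians of the matrix, chaperone and cholesterol lists were -0.57, -0.44 and -0.38, and they stayed below all rows under each of the 4 scalings (highest -0.55, -0.44 and -0.40). By replicate they were -0.62 and -0.39 for matrix, -0.43 and -0.46 for chaperone and -0.62 and -0.19 for cholesterol genes, and the cholesterol median itself was 0.03 in replicate 2. Fibroblast markers, several of them matrix genes, had a median of -0.32 over 12 genes.

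Lists of growth and translation stayed near the median of all rows. DNA replication and mitosis genes (0 of 32, 0 higher and 1 lower at an unadjusted p under 0.05) had a median of 0.09, with 60.9 and 39.3 RPKM under osmotic stress, against 59.5 and 34.8 RPKM in untreated cells for the helicase subunit Mcm2, 26.5 and 15.1 RPKM under osmotic stress, against 34.7 and 37.5 RPKM in untreated cells for the checkpoint kinase Bub1 and 34.9 and 14.8 RPKM under osmotic stress, against 40.7 and 37.0 RPKM in untreated cells for Mki67. Cytosolic ribosomal protein genes (0 of 76, 9 higher and 10 lower at an unadjusted p under 0.05) had a median of 0.09. Rplp0 had 541 and 591 RPKM under osmotic stress, against 532 and 489 RPKM in untreated cells. Rps27a had 23.2 and 25.4 RPKM under osmotic stress, against 54.1 and 53.8 RPKM in untreated cells (log2 change -1.14, adjusted p = 0.0741) and Rpl9 had 13.0 and 16.01 RPKM under osmotic stress, against 31.8 and 31.1 RPKM in untreated cells (log2 change -1.10, adjusted p = 0.0898), and processed copies of these genes make single levels uncertain. Growth factor ligands (0 of 12, 4 higher and 0 lower at an unadjusted p under 0.05) had a median of 0.16, with 17.2 and 9.67 RPKM under osmotic stress, against 13.7 and 8.56 RPKM in untreated cells for Hbegf, 16.6 and 12.0 RPKM under osmotic stress, against 7.01 and 8.24 RPKM in untreated cells for Bdnf and 12.8 and 11.8 RPKM under osmotic stress, against 6.90 and 9.32 RPKM in untreated cells for Ereg. Of 11 mitochondrially encoded genes 0 were called, with 1 higher and 2 lower at an unadjusted p under 0.05 and a median of -0.27 that came mainly from replicate 1 (relative to all rows -1.11 in replicate 1 and -0.09 in replicate 2). mt-Nd1 had 383 and 488 RPKM under osmotic stress, against 485 and 395 RPKM in untreated cells, mt-Nd3 had 48.7 and 107 RPKM under osmotic stress, against 377 and 395 RPKM in untreated cells, and mt-Nd4l had 4.17 and 6.81 RPKM under osmotic stress, against 0.0644 and 0.222 RPKM in untreated cells.

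**Figure D3:**
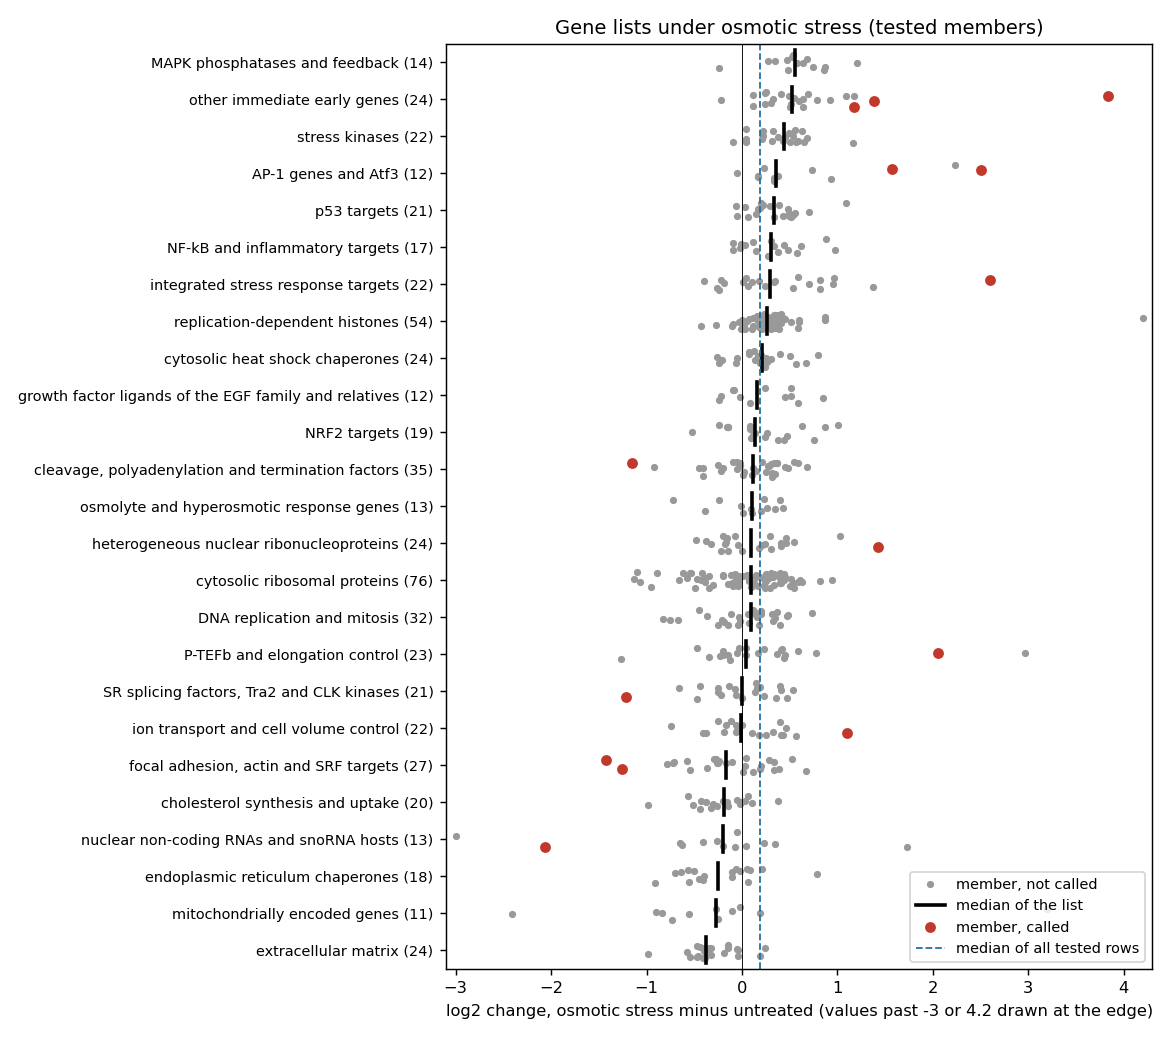
Each grey point is a tested member of a list, with its log2 change (osmotic stress minus untreated), red points are members past the threshold, black bars are list medians, the dashed line is the median of all tested rows (0.19), and values past -3 or 4.2 are drawn at the edge. MAPK phosphatases (0.56) and immediate early genes (0.53) had the highest medians and extracellular matrix genes (-0.38) the lowest of the lists drawn, and red points number 3 at most in a list.

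Whether these changes differed from those of other stresses was tested against the mean of heat shock and oxidative stress, a comparison that does not use the untreated libraries but shares the osmotic stress libraries with the one above. There 1527 rows were higher (10.3%) and 245 lower (1.65%) at an adjusted p under 0.05, with a median difference of 0.30 over all rows. Most of these calls depended on scaling: 107 higher and 264 lower were called with median-of-ratios scaling, 165 and 282 with quantile normalization, 92 and 317 with a common sum without the AC113316.1 row, and 102 and 546 with it. They also depended on single libraries, with 36 calls without osmotic stress replicate 1, 57 and 63 without a heat shock library, 94 and 104 without an oxidative stress library, and 1158 and 1160 without an untreated one, which adds only to the estimate of the spread. Of the 85 rows higher than untreated 68 were also higher than the other stresses, and of the 50 lower rows 33 were also lower. No row was called in opposite directions.

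Hexim1 was one of these rows, with 79.6 and 42.6 RPKM under osmotic stress, 10.1 and 11.4 RPKM under heat shock and 8.17 and 7.32 RPKM under oxidative stress (log2 difference 2.61 ± 0.24 (SE), adjusted p = 0.00756). Vmac had 26.2 and 16.8 RPKM under osmotic stress, 2.31 and 2.13 under heat shock and 2.20 and 2.43 under oxidative stress (log2 difference 2.96 ± 0.22 (SE), adjusted p = 0.00475). Slc20a1 had 84.97 and 64.7 RPKM under osmotic stress, 14.7 and 16.8 under heat shock and 18.4 and 23.1 under oxidative stress (log2 difference 2.01 ± 0.16 (SE), adjusted p = 0.00575). In these 3 genes the values of the other stresses lay near or below the untreated ones. Ddit3 had 7.99 and 13.9 RPKM under heat shock and 25.8 and 43.5 under oxidative stress, below both osmotic stress values (log2 difference 2.43 ± 0.30 (SE), adjusted p = 0.0163). Egr1 was at an intermediate level in the other stresses, with 4.06 and 1.75 RPKM under heat shock and 2.77 and 2.09 under oxidative stress (log2 difference 2.20 ± 0.38 (SE), adjusted p = 0.0252; adjusted p = 0.0568 with median-of-ratios scaling). Fos did not differ past the threshold, with 2.53 and 1.26 RPKM under heat shock and 5.62 and 4.29 under oxidative stress (log2 difference 0.48 ± 0.30 (SE), adjusted p = 0.285), and neither did Jund, Rhob and Zfp36l1.

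Among the genes that fell, Ppp1r10 had 22.7 and 22.9 RPKM under heat shock and 63.2 and 58.6 RPKM under oxidative stress (log2 difference -0.82 ± 0.12 (SE), adjusted p = 0.0196). Srsf5 had 35.6 and 40.5 RPKM under heat shock and 64.1 and 72.2 under oxidative stress (log2 difference -0.65 ± 0.12 (SE), adjusted p = 0.0292). In both genes the heat shock values lay near those of osmotic stress and the oxidative stress values near or above the untreated ones. Mir17hg was lower still under heat shock, with 0.684 and 0.697 RPKM under osmotic stress, 0.304 and 0.369 RPKM under heat shock and 5.01 and 4.51 RPKM under oxidative stress (log2 difference -0.82 ± 0.14 (SE), adjusted p = 0.0251). Vcl, Iqgap1, Rrbp1 and Pdcd11 did not pass in this comparison (adjusted p between 0.114 and 0.291). With median-of-ratios scaling Vcl passed as lower (limma, log2 difference -0.74, adjusted p = 0.0426), and Iqgap1, Rrbp1 and Pdcd11 did not. Of the 24 genes in the heat shock chaperone list 9 were lower under osmotic stress than the mean of the other stresses, and the same number were so with median-of-ratios scaling. All 9 had both osmotic stress values below both heat shock values, but 6 had them above both oxidative stress values and only 1 had them below. Hspa1a had 2.23 and 2.99 RPKM under osmotic stress, 283 and 252 under heat shock and 1.00 and 0.713 under oxidative stress (log2 difference -2.62 ± 0.17 (SE), adjusted p = 0.0031). Hmox1 had 6.13 and 9.80 RPKM under osmotic stress, 20.8 and 15.6 under heat shock and 69.9 and 49.1 under oxidative stress (adjusted p = 0.0148), lower than in either other stress. Dusp1 had 7.04 and 7.38 RPKM under osmotic stress, 34.7 and 31.0 under heat shock and 9.11 and 5.91 under oxidative stress (log2 difference -1.07 ± 0.18 (SE), adjusted p = 0.0238).

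Replication-dependent histone genes had higher levels under osmotic stress than in the other stresses, without a call against untreated cells. Their transcripts are made in S phase and end in a stem-loop instead of a poly(A) tail. Of 54 tested genes 0 were called against untreated cells by limma (1 at an unadjusted p under 0.05; median change 0.26), but 39 were higher than in the other stresses and 1, Hist2h2be, was lower, with a median difference of 1.31 beside 0.30 for all rows. With median-of-ratios scaling 13 were higher and 1 lower, and relative to all rows the median difference was between 0.76 and 0.97 over the 4 scalings. With 1 library left out the count of higher genes was 1 without osmotic stress replicate 1, 40 without osmotic stress replicate 2, 1 and 0 without a heat shock library, 3 and 2 without an oxidative stress library, and 29 without either untreated library, while the median difference was between 0.96 and 1.66 with any 1 library left out. The median level over the 54 genes was 526 and 357 RPKM under osmotic stress, 164 and 116 RPKM under heat shock, 201 and 184 RPKM under oxidative stress, and 413 and 323 RPKM in untreated cells. Of 53 genes with a mean of at least 1 RPKM, 42 (79.2%) had both osmotic stress values above all 4 values of the other stresses, as did 36.1% of the 13240 tested rows with such a mean. Hist1h2bh had 522 and 376 RPKM under osmotic stress, 138 and 113 under heat shock, 157 and 163 under oxidative stress and 397 and 283 in untreated cells (log2 difference 1.65 ± 0.22 (SE), adjusted p = 0.0172; chosen after its value was seen). Hist1h2ao was uneven, with 249.7 and 12.1 RPKM under osmotic stress and 0.372 and 0.0121 RPKM in untreated cells (log2 change 6.39, adjusted p = 0.0662). Hist2h3b had 128 and 60.0 RPKM under osmotic stress, against 62.5 and 36.4 RPKM in untreated cells. Hist1h1a had 2.85 and 3.12 RPKM under osmotic stress, against 2.87 and 3.14 RPKM in untreated cells. Copies within the family are near-identical, so the level of a single gene is uncertain.

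**Figure D4:**
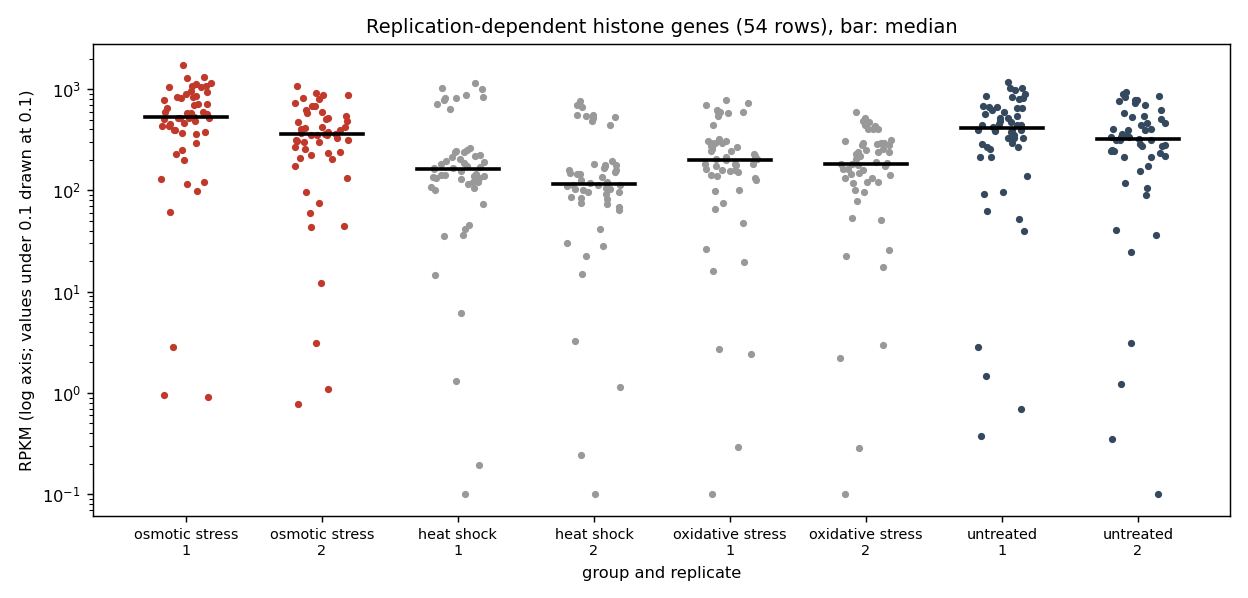
Each point is 1 of 54 histone genes in 1 library, with its RPKM on a log axis, libraries grouped by treatment, the black bar at the median and values under 0.1 drawn at 0.1. The medians of 526 and 357 RPKM under osmotic stress lie near those of untreated cells (413 and 323 RPKM) and above those of heat shock and oxidative stress, which lie between 116 and 201 RPKM.

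Weakly expressed genes just downstream of an active gene on the same strand were higher on average under osmotic stress. Of 10439 protein-coding genes with a mean under 1 RPKM over the 4 libraries, 404 overlap an expressed gene (mean of at least 10 RPKM), and 10016 others were sorted by their nearest expressed gene in the GENCODE M21 annotation, only 534 of which passed the filter on low values. Where the expressed gene lay before the weak gene on the same strand and within 5 kb, the 202 weak genes averaged 0.315 and 0.329 RPKM under osmotic stress, against 0.212 and 0.188 RPKM in untreated cells. Their mean log2 change was 0.20 in replicate 1 and 0.26 in replicate 2. It was 0.20 in both replicates at 5 to 20 kb (329 genes), 0.04 and 0.05 at 20 to 100 kb (616 genes), and 0.01 and 0.02 beyond 100 kb (1264 genes). With the expressed gene within 5 kb in other positions, the means were 0.13 and 0.09 (before, opposite strand), 0.06 and 0.11 (after, same strand) and 0.05 and 0.07 (after, opposite strand). Genes share their neighbourhoods and their libraries, so these means are a description and carry no test. The bands also differ in level, and with 0.5 RPKM added a weaker gene shows a smaller change for the same ratio. With median-of-ratios scaling the means downstream of an expressed gene on its strand were 0.13 and 0.19 within 5 kb, 0.15 and 0.16 at 5 to 20 kb, and 0.003 and 0.007 beyond 100 kb.

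Within 5 kb downstream of an expressed gene on the same strand, 19 of the 202 genes (9.41%) were higher by at least 0.5 in both replicates and 0 were lower by as much, beside 4 of 1264 (0.316%) beyond 100 kb. With 0.5 RPKM added to each value, genes this weak have hardly any room to fall by 0.5, so the 0 says little. The 1264 genes were weaker still, averaging 0.0426 and 0.0429 RPKM in untreated cells, so the 2 shares also depend on level. Dll3, a Notch ligand gene 3.28 kb downstream of Timm50, had 0.615 and 0.458 RPKM under osmotic stress, against 0.0291 and 0.00953 RPKM in untreated cells. Fam131a, 0.357 kb downstream of Eif4g1, had 0.416 and 0.333 RPKM under osmotic stress, against 0.0158 and 0.00753 RPKM in untreated cells. The expressed neighbours did not move alike: Timm50 had 43.7 and 35.2 RPKM under osmotic stress and 37.5 and 29.7 RPKM in untreated cells. Eif4g1 had 226 and 192 RPKM under osmotic stress and 340 and 252 RPKM in untreated cells. These genes were chosen after their values were seen, and all lie under or near the filter on low values. In the other stresses, which share the untreated libraries, the means within 5 kb downstream of an expressed gene on its strand were 0.19 and 0.25 for heat shock and 0.70 and 0.45 for oxidative stress.

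Of 31 rows called higher with an untreated mean under 0.5 RPKM, 20 match a single gene by name. Of these 9 have their nearest expressed gene before them on the same strand, 8 of them within 100 kb, and 11 have it in other positions, while among the 10016 weak genes 24.1% have it before them on the same strand and 11.5% within 100 kb. Both untreated values were under 0.5 RPKM in 30 of the 31, so these passed the filter through the osmotic stress libraries, and their positions are a description only. The 10016 weak genes are all protein-coding, while the 20 include pseudogenes and non-coding genes, so these shares are of unlike sets. Gm14162 lies 8.3 kb downstream of Id1, which had 118 and 74.3 RPKM under osmotic stress and 64.1 and 51.8 RPKM in untreated cells. Ccl11 lies 10.3 kb downstream of Ccl7, which had 140.5 and 211 RPKM under osmotic stress and 117 and 114 RPKM in untreated cells. Aqp6, a channel gene 6.57 kb downstream of Aqp5, had 1.09 and 1.41 RPKM under osmotic stress, against 0.0125 and 0.0124 RPKM in untreated cells (log2 change 1.77, adjusted p = 0.0187), and Tas2r137, a bitter taste receptor gene 6.53 kb downstream of Ssbp1, had 1.02 and 0.96 RPKM under osmotic stress, against 0.126 and 0.0186 RPKM in untreated cells (log2 change 1.38, adjusted p = 0.0358). Gm12703 lies 0.664 kb downstream of Jun and had 0.883 and 0.878 RPKM under osmotic stress, against 0.00634 and 0 RPKM in untreated cells (log2 change 1.46, adjusted p = 0.0283). Egr1 and Fos, by contrast, have their nearest expressed gene 37.8 and 99 kb away on the other strand. Whether reads in the weak genes continue from their neighbours was not tested, since the tables hold 1 value per gene.

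**Figure D5:**
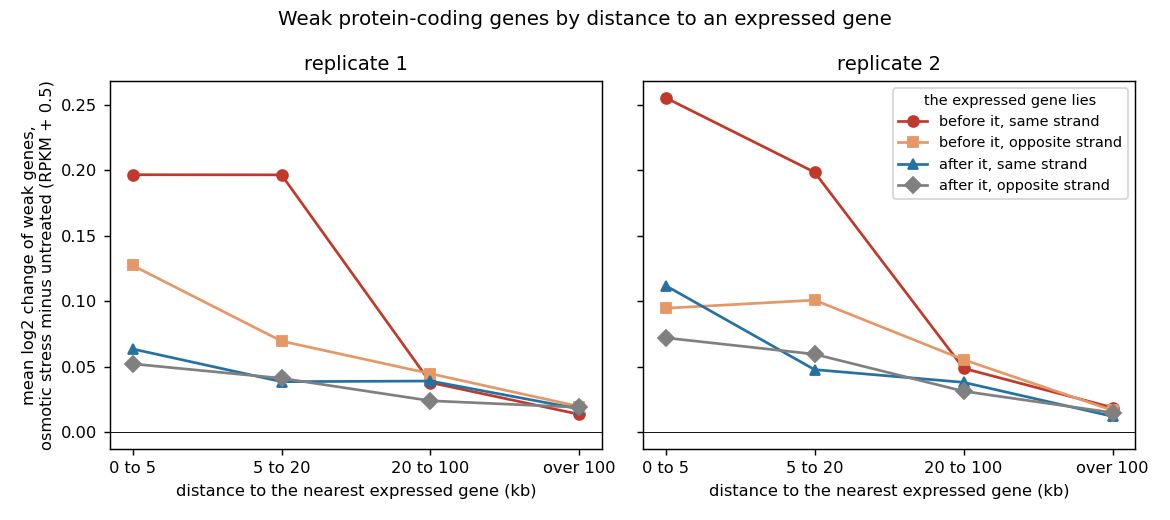
Each point is the mean log2 change (osmotic stress minus untreated, RPKM + 0.5) of weak protein-coding genes in a band of distance to their nearest expressed gene, in kb, with 1 panel per replicate and 1 line per position and strand of that gene. The line for expressed genes before the weak gene on the same strand starts at 0.20 and 0.26 and lies within 0.02 of the others from 20 kb on.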

How the data were processed

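Nuclear RNA of 8 libraries (4 groups of 2) was sequenced by the authors after ribosomal RNA depletion with a strand-keeping dUTP protocol, per the labels' protocols. The deposited values are RPKM per gene row, 1 table per replicate, which the authors made from mm9 alignments. The submitters' processing notes name Bowtie, SAMtools and Cufflinks without versions, and whether counting used strand is not given in the sources used here. Each table has 48676 rows with 44363 distinct names, 5112 rows share a name, and 31378 rows matched 1 GENCODE M21 gene by name.

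RPKM are not counts, so limma 3.58.1 (R 4.3.3) was fitted to log2(RPKM + 0.5) with 4 groups over all 8 libraries (4 residual degrees of freedom), empirical Bayes moderation with a mean trend, and Benjamini-Hochberg adjustment over 14880 rows. A row was called at an adjusted p under 0.05 (two-sided). The median SE of a log2 change was 0.209. Fold changes on this scale understate the change of low genes. The script was tested on simulated data. Labels do not say that replicate numbers mark a shared batch, so the model has no block. Alternatives were other pseudocounts (0.1 and 1), filters, scalings, weights, row sets, fits of fewer libraries and a replicate block.

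Genes described singly were the 14 largest rises and falls among called protein-coding rows with values above 0 and a mean of at least 1 RPKM, up to 3 called members per list and direction (or, with none called, the 2 widest), each list's first gene, up to 6 called rows of other kinds per direction, and up to 10 genes per direction called in both comparisons. The row with the highest mean stood for a repeated name. Some genes that meet the rule are not reported here. The members and the 27 lists were chosen with earlier results of these data known. Weak genes were placed by GENCODE M21 coordinates and sequences taken from RefSeq tables (GRCm38.p6), without mixing builds.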

Additional observations from a re-analysis of the deposited data

Results flagged for a closer look

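With 2 libraries in a group, no row below was flagged for a value that stands apart within its group, and what follows are differences between stresses. Of the called rows described singly, 29 differed from untreated cells and also from the mean of heat shock and oxidative stress in the same direction (limma, adjusted p between 0.00268 and 0.0297 for the second comparison), and both comparisons use the same osmotic stress libraries.

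Protein-coding genes higher under osmotic stress than the mean of the other stresses, with their log2 difference, were Egr1 (2.20), Vmac (2.96), Eno1b (1.67), Caprin2 (2.23), Ccl11 (1.64), AI837181 (2.58), Gm10643 (1.80), Hexim1 (2.61), Slc20a1 (2.01), Cdkn2aip (1.45), Ska2 (1.24), Hnrnpd (1.24), Cab39 (0.64) and Ddit3 (2.43). Rows of other kinds that were higher were Gm14162 (4.03), U6 (2.29), Snhg20 (3.14), AK006031 (1.75), S60130 (2.16) and 9330104G04Rik (2.55). Rows that were lower under osmotic stress than the mean of the other stresses were Gm7324 (-0.98), Srsf5 (-0.65), Ppp1r10 (-0.82), Mir17hg (-0.82), AK141672 (-2.70), D4Wsu53e (-1.99), Gm6635 (-1.47), LOC106557447 (-1.37) and Hnrpk (-2.14).

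With median-of-ratios scaling 25 of the 29 stayed past the threshold against the other stresses. The exceptions were Egr1 (adjusted p = 0.0568), Ccl11 (adjusted p = 0.0772), Ska2 (adjusted p = 0.0664) and Cab39 (adjusted p = 0.265). Ska2 had 17.3 and 10.8 RPKM under osmotic stress, 12.7 and 10.1 RPKM under heat shock and 2.31 and 2.82 RPKM under oxidative stress, so its osmotic stress values lay near those of heat shock and far above those of oxidative stress. AK006031 had 4.59 and 4.07 RPKM under osmotic stress, 0.0263 and 0.199 RPKM under heat shock and 4.00 and 2.04 RPKM under oxidative stress, so 1 oxidative stress value lay close to the osmotic stress values. Eno1b had 4.06 and 3.12 RPKM under osmotic stress, 2.65e-08 and 1.57e-10 RPKM under heat shock and 3.06 and 2.52 RPKM under oxidative stress, and of the other stresses heat shock lay far lower. Mir17hg had 0.684 and 0.697 RPKM under osmotic stress, 0.304 and 0.369 RPKM under heat shock and 5.01 and 4.51 RPKM under oxidative stress, so it was lower than in oxidative stress and higher than in heat shock. LOC106557447 had 6.84 and 5.45 RPKM under osmotic stress, 8.23 and 5.76 RPKM under heat shock and 43.3 and 35.3 RPKM under oxidative stress, and its osmotic stress and heat shock values overlapped.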

How the results depend on the processing

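Against untreated cells, all 135 called rows kept their direction wherever they were tested. The count of 135 became 55 with array weights, 288 with a common sum, 86 with a common sum without the AC113316.1 row, 13 in the fit of the 4 libraries alone, and 4 to 915 when 1 library was left out (the highest without osmotic stress replicate 2). It was 108 over rows above 0 in all 4 libraries, a choice made after seeing the data, and between 111 and 198 under the other alternatives. With the replicate number as a block the count was 800 (all 135 among them). Among the rows described singly without a call, 15 passed with this block and 7 with protein-coding rows only. The labels do not say whether the numbers mark a pairing, and if they do, the fit without a block leaves it out. Differences between replicates correlated with r = 0.076 between osmotic stress and untreated libraries. That r is over all tested rows, those with a wide replicate spread among them, so it cannot decide whether replicates are paired. Some genes differed between replicates the same way in every group. Akr1b3 had 14.7 and 29.99 RPKM under osmotic stress and 12.0 and 20.9 in untreated cells. It had 14.5 and 41.8 RPKM under heat shock and 7.07 and 15.15 under oxidative stress. Fn1 was higher in replicate 1 in every group. Both were chosen after their values were seen, and how many rows do so was not counted.

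Against the other stresses the 1772 calls became 962 with array weights, 648 with a common sum (only 586 of the 1772 kept their direction), 409 without the AC113316.1 row, 371 with median-of-ratios scaling, 447 with quantile normalization, 1157 in a fit without untreated libraries, 4236 with the replicate block, and 36 to 1723 when 1 library was left out. Over the other alternatives the count was between 1531 and 1941.

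No called gene reversed; the cause of the reversals among uncalled genes was not tested. With a common sum, which lowers the median of all rows to -0.37, the log2 change became -0.22 for Sgk1, -0.54 for Nfat5, -0.28 for Lrrc8a, -0.43 for Mapk14, -0.13 for Cdkn1a, -0.25 for Hspa1a, -0.21 for Cpsf1, -0.52 for Rplp0, -0.56 for Mcm2, -0.0474 for Ereg and -0.40 for Hbegf. Without the AC113316.1 row, with median-of-ratios scaling and with quantile normalization it was -0.09, -0.10 and -0.11 for Nfat5, -0.0496, -0.0561 and -0.0496 for Rplp0, and -0.10, -0.10 and -0.10 for Mcm2. Leaving out 1 library gave a range of -0.13 to 0.33 for Nfat5, -0.003 to 0.65 for Lrrc8a, -0.47 to 0.17 for Hmox1, -0.0625 to 0.0507 for Hist1h1a, -0.28 to 0.48 for Mcm2, -0.16 to 0.64 for Hbegf, -0.19 to 0.16 for mt-Nd1 and -11.98 to 0.0126 for Malat1, and 0.0126 for Malat1 with its 0 treated as missing.

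RPKM hide depth, so the precision of low values is unknown. With 2 libraries a side, an exact permutation test of 1 gene cannot go below p = 0.333, and each call rests on a spread shared with the other genes and groups.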

Other observations

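Small RNA genes were unsteady between replicates, and more so under osmotic stress. Over 38 tested microRNA rows the SD of the difference between replicates was 5.22 under osmotic stress and 2.1 in untreated cells, and over 59 snoRNA rows it was 3.19 and 1.66. Processed pseudogenes showed the same contrast, with SDs of 0.897 and 0.384 over 1287 rows.

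Of the 50 rows called lower, 8 were listed at 0 in both osmotic stress libraries. SNORD58 had 226 and 937 RPKM in untreated cells, Snord110 had 265 and 122 RPKM, mt-Tc, a mitochondrial tRNA gene, had 314 and 434 RPKM, SNORD70 had 16.9 and 47.5 RPKM, SNORA36 had 1.11 and 3.03 RPKM and Mir210, which encodes a microRNA known from hypoxia, had 1.54 and 2.12 RPKM. The rest are U6 rows. Snord110, SNORA36, Mir210 and the U6 row with 11.8 and 8.31 RPKM in untreated cells were listed at 0 under heat shock and oxidative stress as well. So were mt-Tc under oxidative stress and SNORD58 under heat shock, so these zeros are not particular to osmotic stress. Of the 85 rows called higher, Gm12306, a processed pseudogene, had 44.9 and 23.2 RPKM under osmotic stress and was listed at 0 in both untreated libraries, as was Mir1191, with 5.00 and 2.77 RPKM under osmotic stress. A 0 in these tables can be a failed estimate, since Malat1 is listed at 0 in 1 library. In all, 138 tested values over the 8 libraries were 0 where the replicate of the same group reached 5 RPKM or more, 58 of them in osmotic stress replicate 1, 17 in osmotic stress replicate 2, 6 in untreated replicate 1 and 13 in untreated replicate 2.

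The AC113316.1 row had 1025100 and 21093 RPKM under osmotic stress, 4571 and 1627 RPKM under heat shock, 4709 and 11774 RPKM under oxidative stress, and 81713 and 8797 RPKM in untreated cells.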
